A study of Mus musculus with 73 samples.

Results

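The comparison described here set 4 libraries of XX Znrf3 cKO adrenals at 6 weeks of age against 4 libraries of XX control adrenals of the same age, 8 of the 73 libraries of the series, chosen by the sex, genotype and age in their labels. The series measured RNA from mouse adrenals of both sexes at several ages, to follow over time and between the sexes what happens after Znrf3 is removed from the steroid-making cells. The Znrf3 cKO mice carried the Sf1-Cre transgene with both alleles of Znrf3 floxed (Sf1-Cre;Znrf3F/F), and the controls, labelled WT, were littermates. Sf1 (Nr5a1) regulatory DNA drives Cre in steroidogenic cells, so capsule, medulla, vessels and immune cells are not its target and each library still holds their RNA. Whole glands were used, RNA was selected by poly(A), and the sources used here do not say if 1 library stands for 1 mouse. The p-values therefore measure the spread between libraries, which may be technical. Libraries are named control 1 to 4 and Znrf3 cKO 1 to 4 in the order of their labels. In these bulk samples, fewer cells of a type and less RNA per cell cannot be told apart. Neither can be told apart from a smaller share of that type in a larger gland. The study reports that female knockout adrenals were heavier and hyperplastic at this age.

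ZNRF3 is a transmembrane E3 ubiquitin ligase that removes Frizzled receptors from the cell surface and so dampens Wnt signalling. R-spondins, with their LGR receptors, clear ZNRF3 and its homologue RNF43 from the membrane and thereby keep cells sensitive to Wnt. In the adrenal cortex, R-spondins from the capsule and Wnt signals maintain the outer zona glomerulosa, which makes aldosterone, while the inner zona fasciculata makes glucocorticoids under pituitary ACTH. In young female mice an inner X zone borders the medulla, where chromaffin cells make catecholamines.

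The 8 libraries held 30137759 to 55378049 recovered reads, and Xist was between 67.9 and 100.6 RPKM in all 8 with no Y-linked gene of 4 above 0.0577 RPKM. RPKM is the number of reads of a gene, scaled by the length of its transcript and by the depth of the library. Steroidogenic genes such as Hsd3b1 (6955 RPKM or more in every library) and chromaffin genes were present, as in whole adrenal. The Znrf3 cKO libraries stood further from each other than the controls did, with correlations of 0.952 to 0.982 within their group against 0.975 to 0.987 within the controls. Znrf3 cKO 3 and 4 held much 5S rRNA and small nuclear RNA: small noncoding RNA took 1.58% and 1.30% of their reads, against 0.0988% to 0.265% in the other 6 libraries. Znrf3 cKO 1 lay at the low end of the second principal component (-46.1, against -11.6 to 37.5 in the other 7) and had the highest sum of RPKM (628502, against 444448 to 513806 in the other 7). Znrf3 cKO 2 was nearest to the controls: its highest correlation with a control, 0.978, was no lower than its highest with a cKO library, 0.976. Counts of calls are therefore also given without Znrf3 cKO 3 and 4.

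**Figure D1:**
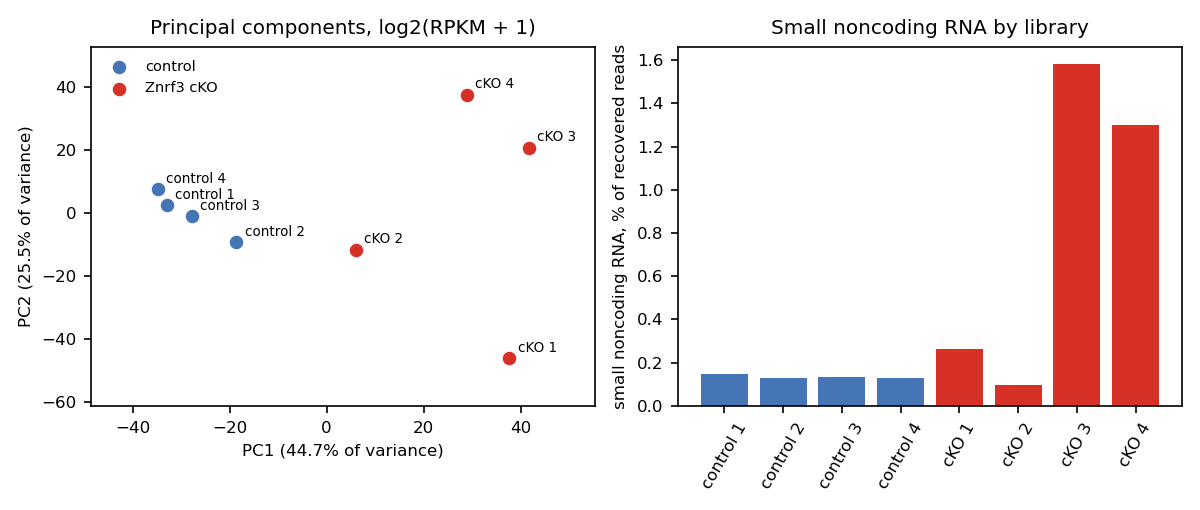
Left, the 8 libraries on the first (44.7% of variance) and second (25.5%) principal component of log2(RPKM + 1) over 18840 genes, with 1 point per library. Right, the share of recovered reads on small noncoding RNA genes in each library as bars from 0: Znrf3 cKO 3 and 4 lie at 1.58% and 1.30%, the other 6 at 0.265% or below.

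Across 19539 tested genes, 430 were higher and 1151 lower in Znrf3 cKO than in control adrenals at an adjusted p under 0.05 (limma on log2(RPKM + 1)), which is 2.2% and 5.89% of the genes tested. Counts of called list members below are to be read beside these shares. Protein-coding genes made up 347 of the rises and 1007 of the falls. At least 2-fold changes on the log2(RPKM + 1) scale were 61 rises and 264 falls. At an unadjusted p under 0.05 there were 5147 of the 19539 tested genes, in either direction. The median log2 fold change of all tested genes was 0.039. Below, a value in brackets after a gene name and without a unit is the log2 fold change of RPKM + 1, Znrf3 cKO over control, and a value after ± is its SE. The groups did not overlap in 2168 genes that were higher (11.1%) and 1987 that were lower (10.2%). The counts moved with single libraries, falling to 152 rises and 542 falls without control 1, and to 191 and 584 without Znrf3 cKO 3. Without both Znrf3 cKO 3 and 4 they were 146 and 474. With libraries rescaled to a common sum of RPKM they were 213 and 1229, so that the share of rises among the calls went from 27.2% to 14.8%. With all libraries kept and small noncoding RNA genes left out of the test, 0 of the 126 called genes named here lost their call. Without Znrf3 cKO 3 and 4, which leaves only Znrf3 cKO 1 and 2 in that group and so less power, 42 of the 126 lost it. Those that had risen were Tyrobp, C1qa, C1qb, Mfge8, Csf1, Tnfrsf1b, Apoc4, Apoe, Casp12, Col4a5, Ggt6, Igfbp7, Id2, Tnfaip2, C2 and Gm14435. Those that had fallen were Rnf43, Rspo1, Wnt2b, Wnt6, Lrp6, Notum, Ptch1, Agtr1a, Agtr1b, Olfml2a, Pde8a, Cdh19, Ucp1, Fabp4, Cdkn1b, Dcn, Nr2f2, Kdr, Flt1, Tek, Tie1, Cpa3, Igfbp6, Itgb3, Cry1 and Pear1.

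Znrf3 itself was not lower but higher in the knockout. Its RPKM was 3.95, 4.93, 5.08 and 4.53 in controls 1 to 4 and 11.1, 9.73, 9.01 and 9.38 in Znrf3 cKO 1 to 4, and the lowest cKO library lay above the highest control. The log2 fold change was 0.94 ± 0.092 (SE, adjusted p = 0.00169). The floxed part of the gene covers the exons that encode the RING domain, and the table pools the reads of all exons into 1 value, so this level does not check the deletion. The other ligase of the pair went the opposite way: Rnf43 was at 0.909 to 1.39 RPKM in controls and 0.211 to 0.692 RPKM in cKO adrenals (log2 fold change -0.501 ± 0.13, adjusted p = 0.0484), a call that was lost without any 1 of the 8 libraries.

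Most of the R-spondin and receptor genes upstream of ZNRF3 fell. Of the 6 measured genes among R-spondins, LGR receptors, Znrf3 and Rnf43, 4 were lower and 1, Znrf3, was higher, with a median log2 fold change of -0.54, beside the 5.89% lower and 2.2% higher among all tested genes. Rspo3, the R-spondin made by capsule cells, was at 9.21, 7.79, 9.67 and 10.2 RPKM in controls 1 to 4 and at 1.26, 2.66, 2.26 and 2.59 in Znrf3 cKO 1 to 4, a log2 fold change of -1.699 ± 0.16 (adjusted p = 0.00163). The 2 groups were far from overlapping, and Znrf3 cKO 1 was the lowest. Lgr5, an R-spondin receptor and Wnt target, was at 3.11, 2.16, 2.27 and 3.24 RPKM in the controls and 0.133, 0.453, 0.248 and 0.3198 in the cKO libraries (-1.51 ± 0.13, adjusted p = 0.00121). Here too no cKO library reached a control. Rspo1 fell by less (0.966 to 1.92 against 0.609 to 0.774 RPKM, log2 fold change -0.59), while Lgr4, the most abundant receptor of the list, did not pass the test (31.8 to 41.4 against 27.4 to 37.4 RPKM, -0.11, adjusted p = 0.563). The number of lower genes in this list was 2 without control 1, 2 or 3 or Znrf3 cKO 1, 2 or 3, and 2 without Znrf3 cKO 3 and 4.

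Among the other Wnt genes 2 ligands, 1 receptor and 5 inhibitors fell, where 5.89% of all tested genes were lower. Of 8 measured ligands, Wnt2b (4.43 to 7.16 RPKM in controls, 1.31 to 2.99 in cKO, log2 fold change -1.09 ± 0.18, adjusted p = 0.0103) and Wnt6 (-0.56) fell, neither of them past the test without Znrf3 cKO 3 and 4. Of 15 receptors only the co-receptor Lrp6 was called, at 12.6 to 14.4 against 8.16 to 11.1 RPKM (-0.39, adjusted p = 0.0417), and it was lost in most fits without 1 library. None of the 15 intracellular components of the pathway was called by limma, and 1 was called lower with voom weights on the recovered reads. At an unadjusted p under 0.05, 1 of them was lower, beside 5147 of all 19539 tested genes in either direction. Of 11 measured Wnt inhibitors 5 fell and 0 rose, with a median of -0.54. Among them was Nkd1 (-0.95 ± 0.15), which acts on Dishevelled inside the cell but was not listed with the intracellular components. The others were Apcdd1, a membrane inhibitor (-1.26 ± 0.21), Dkk3 (-0.84), Sfrp1, which binds Wnt ligands (-0.81), and Notum, which removes their lipid (-0.62). This count was 3 without control 1 or Znrf3 cKO 3 and 4 without Znrf3 cKO 3 and 4 together.

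Genes known as β-catenin targets did not move as 1 group. Of 16 measured, 5 were lower (Lgr5, Rnf43, Nkd1, Notum and Apcdd1, all also in the lists above), 2 were higher (Znrf3 and the receptor gene Tnfrsf19) and the median log2 fold change was -0.25. The number of lower genes was 3 without control 1, without Znrf3 cKO 3, and without Znrf3 cKO 3 and 4. Tnfrsf19 was at 32.5, 34.9, 36.6 and 35.03 RPKM in controls 1 to 4 and 59.3, 54.01, 50.8 and 46.2 in Znrf3 cKO 1 to 4 (0.58 ± 0.089, adjusted p = 0.008095), with no overlap. Axin2, the target used most widely as a readout, gave overlapping values, 7.697, 6.65, 6.89 and 6.95 RPKM in controls and 5.04, 7.55, 6.16 and 7.89 in cKO libraries (-0.086 ± 0.12, adjusted p = 0.6604). Lef1 (-0.32, adjusted p = 0.0575) and Myc (0.96, adjusted p = 0.0929) did not pass either. Over the 6 Wnt lists together, 12 of 61 measured genes fell and 2 rose, beside 5.89% lower and 2.2% higher among all tested genes. The motif CTTTGAT, the core bound by TCF/LEF factors, stood on either strand in 3 of 46 promoters of these genes, in 26 of 1037 promoters of all genes that fell (2.51%) and in 12 of 364 of those that rose (3.3%), beside 2.49% of the 13949 promoters of tested genes and 3.73% of all 32851 RefSeq promoters of the same length.

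**Figure D2:**
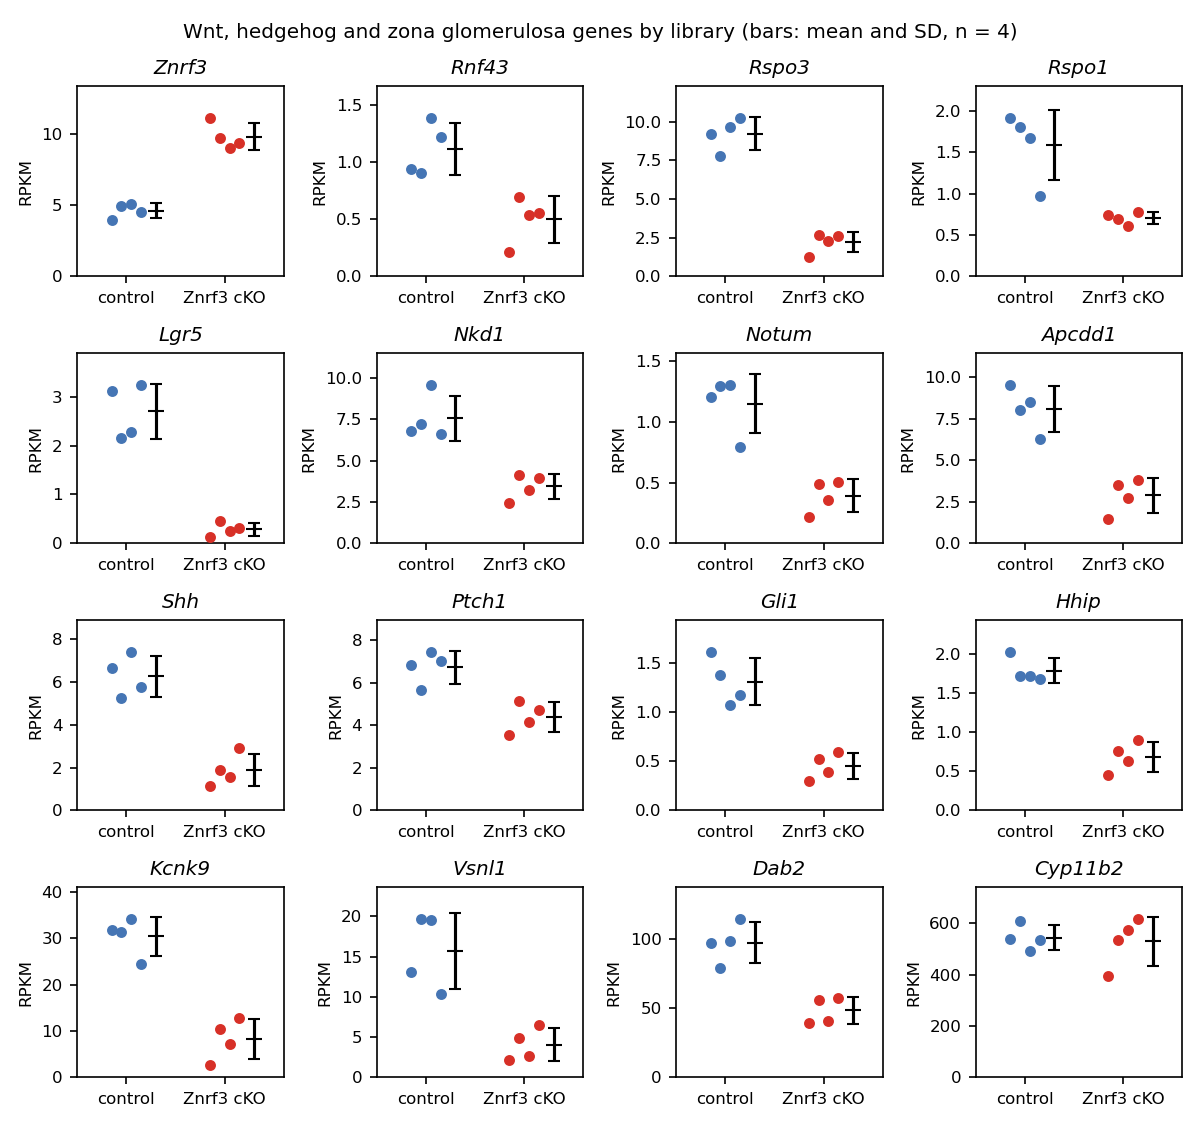
RPKM (vertical axes, from 0) of 16 Wnt, hedgehog and zona glomerulosa genes, 1 point per library with the mean and SD of 4 control and 4 Znrf3 cKO libraries. Znrf3 is higher in all 4 cKO libraries, Cyp11b2 overlaps, and the other 14 genes are lower in every cKO library than in every control.

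Hedgehog signals from the outer cortex to the capsule, and 4 of its genes fell, as did 6 of the zona glomerulosa. Of 8 measured hedgehog genes 4 were lower and 0 higher (median -0.47). Shh, the ligand made by outer cortical progenitors, was at 6.64, 5.26, 7.41 and 5.76 RPKM in controls 1 to 4 and 1.15, 1.88, 1.58 and 2.93 in Znrf3 cKO 1 to 4 (-1.36 ± 0.18, adjusted p = 0.00454). The 4 cKO libraries lay below the lowest control. The targets that report the signal in the receiving cells fell as well: Gli1, a transcription factor of capsule cells (1.07 to 1.61 against 0.302 to 0.591 RPKM, -0.67, adjusted p = 0.00886), Hhip, which binds the ligand (-0.73, adjusted p = 0.00514), and the receptor gene Ptch1 (-0.53, adjusted p = 0.0273). The count was 3 or 4 without 1 library and 3 without Znrf3 cKO 3 and 4.

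Of 9 zona glomerulosa genes 6 fell and 0 rose, with a median of -1.001. Kcnk9, a potassium channel that holds these cells at a negative potential, was at 31.8, 31.3, 34.2 and 24.4 RPKM in controls and 2.703, 10.5, 7.12 and 12.8 in cKO libraries (-1.91 ± 0.37, adjusted p = 0.0171). Vsnl1, a calcium sensor, was at 13.1, 19.7, 19.5 and 10.3 RPKM in the controls and 2.12, 4.87, 2.69 and 6.56 RPKM in the cKO libraries (-1.76 ± 0.31, adjusted p = 0.0123). For both genes Znrf3 cKO 1 was the lowest and Znrf3 cKO 4 the highest of the cKO libraries, still below every control. Dab2, an endocytic adaptor used as a marker of this zone, fell (78.9 to 115 against 39.3 to 57.1 RPKM, -1.001), and the angiotensin receptor genes Agtr1b (-1.35) and Agtr1a (-0.47) fell as well. Cyp11b2, aldosterone synthase, overlapped fully, at 538, 608, 492 and 534 RPKM in controls and 395, 534, 572 and 617 in cKO libraries (-0.052 ± 0.17, adjusted p = 0.855). The number of lower genes was 3 without control 1 or Znrf3 cKO 3, and 4 without Znrf3 cKO 3 and 4. In the same libraries 4 of 12 capsule and stroma genes and 17 of 18 chromaffin genes were lower, and their part in the Wnt, hedgehog and zona glomerulosa values was not tested.

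Most genes of steroid synthesis did not pass the test. Of 18 measured genes of steroidogenesis, 1 was higher, Nr5a1, 1 was lower, Akr1b7, and the median log2 fold change was 0.08. Star, which carries cholesterol into mitochondria (1870.3 to 2328 against 1469.9 to 1675 RPKM, -0.42, adjusted p = 0.177), Cyp11a1 (-0.22), Hsd3b1 (0.48), Cyp21a1 (0.34) and Cyp11b1, which makes corticosterone (2063 to 2649 against 2085 to 2917 RPKM, 0.18), did not pass, although all 4 cKO libraries lay below the controls for Star and above them for Hsd3b1. Akr1b7, an aldo-keto reductase of fasciculata cells, was at 726, 896, 628 and 934 RPKM in controls 1 to 4 and 203, 335, 299 and 166 in Znrf3 cKO 1 to 4 (-1.700 ± 0.25, adjusted p = 0.00654). The groups did not overlap. Of 23 cholesterol synthesis genes only Dhcr7, the enzyme of the last step, was called (42.4 to 56.7 against 23.8 to 27.7 RPKM, -0.92 ± 0.11, adjusted p = 0.00252), and of 16 genes of ACTH signalling and protein kinase A 2 were lower, among them Pde8a, which degrades cyclic AMP (-0.49). The latter count was 1 without control 1 or 3, without Znrf3 cKO 1, 2 or 3, and without Znrf3 cKO 3 and 4.

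Nr5a1, which encodes SF1, the factor that defines steroidogenic cells, was at 148, 173, 126 and 154 RPKM in controls 1 to 4 and 473, 403, 393 and 329 in Znrf3 cKO 1 to 4 (1.403 ± 0.15, adjusted p = 0.00185). Every cKO library was far above every control. Its neighbour Nr6a1, an orphan nuclear receptor gene, was at 1.01, 0.918, 1.07 and 1.29 RPKM in the controls and 4.93, 11.1, 6.24 and 10.8 RPKM in the cKO libraries (2.098 ± 0.23, adjusted p = 0.00204), with Znrf3 cKO 2 and 4 the highest. Both lie on chromosome 2 of mouse build GRCm38 (mm10), Nr5a1 at 38692656 to 38714542 and Nr6a1 at 38723370 to 38927688. On the far side of Nr6a1, Olfml2a fell (2.87 to 4.89 against 0.984 to 2.12 RPKM, -0.81), and on the far side of Nr5a1, Psmb7 did not pass (0.13, adjusted p = 0.526). The labels give the Cre transgene, built from this locus, to the cKO mice only, so reads from the transgene and from the locus cannot be told apart here.

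Genes of the X zone had lower values but did not pass the test, although of 3 measured 2 were called lower in 1 fit over all groups, 1 with a common sum and 1 without control 4. Akr1c18, an enzyme that inactivates progesterone and marks this zone, was at 906, 3810.2, 789 and 147 RPKM in controls 1 to 4 and 67.3, 48.01, 234 and 14.9 in Znrf3 cKO 1 to 4. The controls themselves spanned a wide range, control 4 lay under the highest cKO library, and the log2 fold change of -3.74 ± 1.05 had an adjusted p of 0.0683. Pik3c2g gave the same picture (0.697 to 15.2 against 0.0148 to 1.18 RPKM, -1.81, adjusted p = 0.139). At 4 and 12 weeks, in XX adrenals with their own controls, Akr1c18 was lower, with log2 fold changes of -7.09 and -2.705 (adjusted p = 0.000139 and 0.007896), and the difference between the ages did not pass (adjusted p = 0.524 for 6 against 4 weeks and 0.869 for 12 against 6 weeks).

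The largest falls were in genes of chromaffin cells, which the Cre does not target. The part of gland size in these falls was not tested. Of 18 genes of catecholamine synthesis, vesicles and chromaffin identity, 17 fell and 0 rose, with a median log2 fold change of -1.91, and the sum of the 18 was 1333 to 2352 RPKM in controls against 121 to 275 RPKM in Znrf3 cKO libraries. Pnmt, which turns noradrenaline into adrenaline, was at 77.3, 50.6, 40.8 and 107 RPKM in controls 1 to 4 and 0.364, 4.17, 3.81 and 2.05 in Znrf3 cKO 1 to 4 (-4.35 ± 0.45, adjusted p = 0.00185). Th, the rate-limiting enzyme of catecholamine synthesis, was at 129, 80.6, 81.3 and 160.5 RPKM in the controls and 4.93, 17.2, 11.8 and 12.8 RPKM in the cKO libraries (-3.21 ± 0.36, adjusted p = 0.00231). For both, controls 1 and 4 were the highest libraries and Znrf3 cKO 1 the lowest, and the groups were far apart. The granins of secretory vesicles fell as much: Chgb (498 to 874 against 39.96 to 84.7 RPKM, -3.45 ± 0.26), Chga (292 to 422 against 19.3 to 53.7 RPKM, -3.23 ± 0.29) and Scg2 (-2.91 ± 0.28). Dbh, which makes noradrenaline (-2.69), Ddc (-1.67), the peptide genes Npy (-2.76) and Penk (-1.75), and the identity factors Phox2a (-1.58) and Hand2 (-2.03) were lower in every cKO library than in every control. Cartpt, the 1 gene not called, was at 2.37, 1.72, 1.26 and 9.46 RPKM in the controls and 0.116, 0.285, 0.441 and 0.129 RPKM in the cKO libraries (-1.64, adjusted p = 0.0536). Leaving out 1 library gave 16 to 18 falls, and without Znrf3 cKO 3 and 4 there were 15. The glial list, which marks the sheath cells of the medulla, had 1 fall in 6 measured genes, Cdh19 (-0.71), and a median of -0.48.

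The cyclic AMP response element, the palindrome TGACGTCA bound by CREB, is known from the promoters of Th and of granin genes. This motif, chosen after the values were seen, stood in the 300 bases from 250 before to 50 after the RefSeq start of 5 of the 13 chromaffin genes with a promoter entry (Cartpt, Chgb, Scg2, Slc18a2 and Th), beside 588 of 32851 promoters of that length (1.79%). Because the motif reads the same on both strands, it was searched once. The promoters of 3 of the genes that fell most are shown, 5′ to 3′ on the gene's strand in build GRCm38.p6 (RefSeq), with the motif in capitals. Chgb lies at chr2:132781392-132781691 on the plus strand, Scg2 at chr1:79439977-79440276 on the minus strand and Th at chr7:142899946-142900245 on the minus strand, and the first base of the motif lies 72, 68 and 45 bases before the start.
Chgb: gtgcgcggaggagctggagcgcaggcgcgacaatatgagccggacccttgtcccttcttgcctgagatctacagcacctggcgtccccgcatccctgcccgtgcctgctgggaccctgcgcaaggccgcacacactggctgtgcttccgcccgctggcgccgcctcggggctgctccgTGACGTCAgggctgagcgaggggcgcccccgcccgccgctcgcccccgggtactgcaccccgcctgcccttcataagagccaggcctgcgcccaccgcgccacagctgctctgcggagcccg
Scg2: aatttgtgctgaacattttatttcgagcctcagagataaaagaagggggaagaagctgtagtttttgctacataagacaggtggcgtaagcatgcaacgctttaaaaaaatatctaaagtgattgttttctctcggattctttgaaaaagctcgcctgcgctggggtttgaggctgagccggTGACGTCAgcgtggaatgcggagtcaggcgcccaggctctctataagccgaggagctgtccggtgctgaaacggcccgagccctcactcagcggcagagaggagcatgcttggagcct
Th: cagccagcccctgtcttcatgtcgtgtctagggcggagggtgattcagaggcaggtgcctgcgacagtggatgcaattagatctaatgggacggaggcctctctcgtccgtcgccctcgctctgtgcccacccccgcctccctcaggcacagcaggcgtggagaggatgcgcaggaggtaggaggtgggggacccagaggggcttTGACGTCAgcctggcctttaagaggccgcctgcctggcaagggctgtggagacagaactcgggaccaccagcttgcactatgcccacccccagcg
A match of these letters is a description of the promoter and was not tested as a site.

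Dlk1, an imprinted gene that encodes a Notch-like membrane protein, was at 33.4, 25.3, 26.8 and 39.8 RPKM in controls 1 to 4 and 2.02, 4.42, 3.46 and 3.99 in Znrf3 cKO 1 to 4 (-2.87 ± 0.21, adjusted p = 0.000899). All 4 cKO libraries were far under the lowest control. It lies on chromosome 12 (109452823 to 109463336, GRCm38) in an imprinted cluster with the noncoding RNA genes Meg3 (-2.35, adjusted p = 0.0236) and Rian (-1.898, adjusted p = 0.0121), which are expressed from the other parental allele and fell too. Nnat (-2.22), Nap1l5 (-2.33) and Ndn (-0.94), which are imprinted genes at other loci, fell too. These genes were named for their falls, and no list of imprinted genes was counted. The neuropeptide gene Gal (-2.34) and the secretory vesicle genes Resp18 (-2.702), Scg5 (-2.27) and Scg3 (-2.105) fell as well. The part of the chromaffin RNA in these falls was not tested.

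Falls outside these classes included Agtr2, the angiotensin type 2 receptor gene, at 15.2, 7.07, 16.2 and 10.6 RPKM in controls and 1.91, 1.89, 1.98 and 1.44 in cKO libraries (-2.18 ± 0.22, adjusted p = 0.00181). Its cKO values lay close together and all under the lowest control. Car8, a carbonic anhydrase-related gene, was at 10.2 to 34.03 against 0.627 to 4.51 RPKM (-2.49, adjusted p = 0.0125). Steap1, which encodes a membrane protein of the STEAP family, had among the smallest adjusted p-values of the table. It was at 17.7, 16.4, 21.02 and 18.1 RPKM in the controls and 5.98, 6.39, 5.55 and 5.26 RPKM in the cKO libraries (-1.505 ± 0.09, adjusted p = 0.000899), with little spread in either group.

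The largest rise was in Mgat4c, which encodes a glycosyltransferase: it was at 1.12, 2.499, 1.14 and 1.12 RPKM in controls 1 to 4 and 67.97, 15.6, 34.9 and 7.53 in Znrf3 cKO 1 to 4 (3.34 ± 0.57, adjusted p = 0.0114). The cKO libraries were all above the controls but differed widely among themselves. Adh7, an alcohol dehydrogenase that acts on retinol, was at 19.2, 19.2, 23.6 and 20.3 RPKM in the controls and 267, 127, 93.98 and 118 RPKM in the cKO libraries (2.71 ± 0.28, adjusted p = 0.001903). Fscn1, the actin-bundling protein fascin, was at 14.4, 14.2, 15.02 and 8.89 RPKM in the controls and 64.9, 67.7, 66.4 and 57.5 RPKM in the cKO libraries (2.23 ± 0.15, adjusted p = 0.000899). In all 3 genes the lowest cKO library was well above the highest control.

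Other rises of more than 2-fold were in Crybb1, a crystallin gene (2.29), Scube1, a secreted EGF-domain protein (0.796 to 1.72 against 7.52 to 11.3 RPKM, 2.18 ± 0.16), Pipox, a peroxisomal oxidase (2.15), Nxph1, a neurexin ligand (0.248 to 0.411 against 2.35 to 8.98 RPKM, 2.09), Ak1, adenylate kinase (1.56), Pde7a, a phosphodiesterase specific for cyclic AMP (18.4 to 21.2 against 48.6 to 67.1 RPKM, 1.52 ± 0.11), Casp12 (1.43), Ggt6 (1.33) and Gabrg3, a GABA receptor subunit (1.33). The lipoprotein genes Apoe (146 to 385 against 565 to 929.8 RPKM, 1.92 ± 0.31, adjusted p = 0.00945) and Apoc4 (2.14) are neighbours on chromosome 7 and rose together. Nat8 (1.63) and Nat8f1 (1.64), N-acetyltransferase paralogs on chromosome 6, also rose, and reads shared between such near copies leave their single values uncertain. The type IV collagen genes Col4a5 (5.61 to 12.4 against 20.1 to 29.4 RPKM, 1.303, adjusted p = 0.0106) and Col4a6 (0.390 to 0.948 against 4.05 to 5.65 RPKM, 1.71, adjusted p = 0.00121), a head-to-head pair on the X chromosome, both rose.

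**Figure D3:**
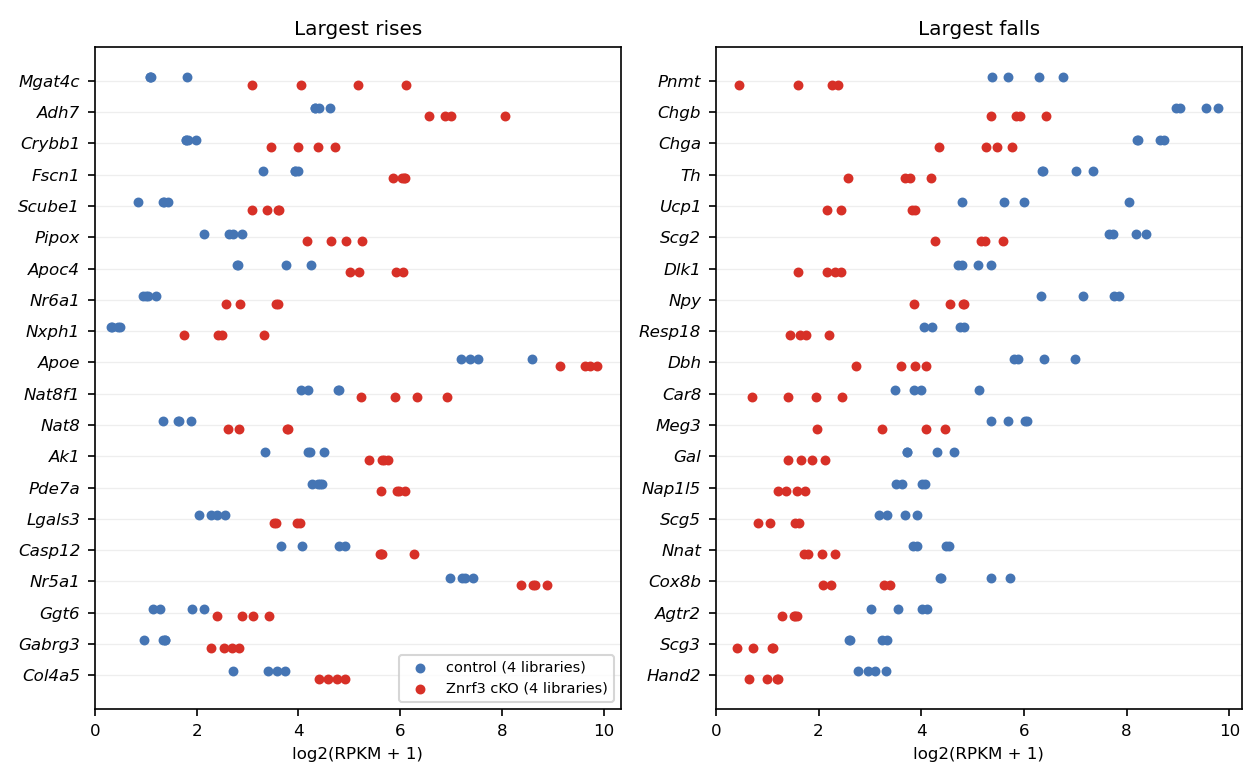
The 20 largest rises and 20 largest falls that passed the test with libraries of the 2 groups not overlapping and 5 RPKM or more on average where the gene was higher, 1 point per library, on log2(RPKM + 1). Chromaffin genes head the falls, and Mgat4c shows the widest spread among the cKO libraries.

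Some macrophage genes rose, most of them by less than 2-fold. Of 21 macrophage genes 8 were higher and 0 lower, beside 2.2% higher and 5.89% lower among all tested genes. Their median log2 fold change was 0.56, and their sum was 317 to 359 RPKM in controls against 496 to 625 RPKM in cKO libraries. A negative value was found in 5 of the 21. Every cKO library lay above every control in 12 genes and below in 1, beside 11.1% and 10.2% of all tested genes. At an unadjusted p under 0.05, 14 were higher and 1 lower. Lgals3, galectin-3, was at 4.89, 4.302, 3.89 and 3.12 RPKM in controls 1 to 4 and 10.5, 15.3, 14.7 and 10.9 in Znrf3 cKO 1 to 4 (1.45 ± 0.15, adjusted p = 0.00194), and it is also expressed outside macrophages. Cd68, a lysosomal protein of macrophages, was at 8.47, 9.24, 8.11 and 6.797 RPKM in the controls and 14.6, 15.9, 16.1 and 14.01 RPKM in the cKO libraries (0.82 ± 0.095, adjusted p = 0.00252). The protease gene Ctss (0.88), the complement genes C1qa (0.71), C1qb (0.64) and C1qc (0.68), the lipid receptor gene Trem2 (0.58) and its adaptor gene Tyrobp (0.61) rose with no overlap of the groups. The macrophage receptor genes Csf1r (8.08 to 9.29 against 8.07 to 12.9 RPKM, 0.23, adjusted p = 0.329) and Adgre1 (0.49, adjusted p = 0.0954) and the integrin gene Itgam (-0.16, adjusted p = 0.325) did not pass. The count was 3 without control 1, 3 or 4, 5 without control 2, without Znrf3 cKO 1, without Znrf3 cKO 3 and 4 or with a common sum of RPKM, and 0 in 1 fit over all groups of the series.

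The genes by which the study describes phagocytosis and the secretory phenotype of senescent cells were picked by the study in XY adrenals of the same series. Those libraries do not enter the XX comparison, but the lists were chosen on data of the same experiment. Of its 15 measured phagocytosis genes 7 were higher and 0 lower: the complement genes, Trem2, Tyrobp and Lgals3, as above, and the bridging protein gene Mfge8 (23.5 to 30.8 against 32.3 to 37.7 RPKM, 0.404, adjusted p = 0.0424). The count of rises was 1 without control 1 or 4, 2 without control 3, and 4 without control 2 or Znrf3 cKO 1, 2 or 3. It was 3 without Znrf3 cKO 3 and 4, with a common sum or in 1 fit over all groups. A negative value was found in 4 of the 15. At an unadjusted p under 0.05, 11 were higher and 2 lower, and 1 was called lower without Znrf3 cKO 1 or without Znrf3 cKO 4. Gas6, which bridges dying cells to the receptors of phagocytes, was at 49.6, 106, 55.8 and 34.9 RPKM in the controls and 394, 109, 166 and 70.8 RPKM in the cKO libraries (1.39, adjusted p = 0.143), with the groups overlapping. Gpnmb was near 0 in controls and at 0.308, 3.39, 4.54 and 0.507 RPKM in Znrf3 cKO 1 to 4 (1.29, adjusted p = 0.121). Of the 5 measured secretory genes, Tnfrsf1b (0.52, adjusted p = 0.0251) and Csf1, a growth factor of macrophages (0.41, adjusted p = 0.0412), rose. Neither passed without control 1 or 4, without Znrf3 cKO 2 or 3, or without Znrf3 cKO 3 and 4. Only Tnfrsf1b passed without control 3 or without Znrf3 cKO 4. The 1 secretory gene with a negative value lay below every control in every cKO library, as did 10.2% of all tested genes. It was called lower without Znrf3 cKO 1 or without Znrf3 cKO 4. Il34, the other ligand of the receptor of CSF1, fell, with 16.5, 26.1, 25.5 and 14.8 RPKM in controls 1 to 4 and 5.57, 5.304, 6.698 and 3.61 in Znrf3 cKO 1 to 4 (-1.77 ± 0.22, adjusted p = 0.00324), with no overlap. Tnfsf13b (1.15) and Ms4a7, a macrophage membrane protein (0.92), rose.

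The larger sets that the study used gave rises and falls. Of 93 measured genes of its adrenal macrophage set 17 were higher and 1 lower (median 0.26), and without 1 library 7 to 13 were higher (7 without control 1 or 3, 10 without control 4, 11 without control 2), with 6 without Znrf3 cKO 3 and 4, 7 with a common sum and 2 in 1 fit over all groups. Its set for phagocytosis signalling had 6 higher, among them the integrin gene Itgb5 (0.64), and 1 lower, Itgb3 (-1.004), of 21. The 6 were 2 without control 1, 3 or 4 or Znrf3 cKO 3, and 3 without control 2, without Znrf3 cKO 2, without Znrf3 cKO 3 and 4 and in 1 fit over all groups. The 4 sets on senescence and cytokines had more falls than rises in this fit. Of all tested genes 2.2% were higher and 5.89% lower. In the SASP set of Coppe 3 of 33 were higher and 4 lower. That of Fridman and Tainsky had 4 higher and 10 lower of 65. SenMayo had 4 and 11 of 81, and the cytokine set 3 and 9 of 77. Without Znrf3 cKO 3 and 4 the higher and lower counts of these sets were 1 and 2, 0 and 3, 1 and 4, and 2 and 6. With 1 library left out the lower counts were 1 to 5, 3 to 13, 4 to 12 and 5 to 10, and the lowest came without control 1 or Znrf3 cKO 3 in every set and also without Znrf3 cKO 2 in those of Coppe and SenMayo. The higher counts were 0 to 3, 0 to 4, 0 to 4 and 1 to 4. In 1 fit over all groups the set of Coppe had 3 higher and 1 lower. The lower members included Cxcl12 (-1.26), Cxcl14 (-1.300), Tnfrsf11b (-0.88), Igfbp6 (-0.93), Cd9 (-0.92), Cd55 (-1.49), Tgfb3 (-0.87) and Bmp4 (-0.62), and the higher ones Igfbp7 (0.55) and Tnfaip2 (0.68). Scg2, a chromaffin gene, counts among the lower members of the cytokine set. In the apoptotic cell clearance set 4 were higher, among them C2 (0.54), and 3 lower, among them Cd36 (-1.42) and Pear1 (-0.49), of 41. These were 1 and 1 without control 1 and without Znrf3 cKO 3 and 4, and the rises were 1 or 2 without any other library but Znrf3 cKO 1.

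Genes of the cell cycle did not pass the test. Of 25 proliferation genes 0 were called by limma in either direction, 0 with voom weights and 0 at an unadjusted p under 0.05; 23 had a negative and 2 a positive log2 fold change, and the median was -0.29. Mki67 was at 3.67, 5.51, 4.702 and 13.7 RPKM in controls 1 to 4 and 1.97, 2.18, 5.44 and 9.38 in Znrf3 cKO 1 to 4 (-0.502 ± 0.48, adjusted p = 0.502), and Top2a at 3.15, 4.33, 3.495 and 11.97 RPKM in the controls and 1.498, 1.62, 4.16 and 7.31 RPKM in the cKO libraries (-0.55, adjusted p = 0.465). Control 4 and Znrf3 cKO 4 were the highest of their groups in both. None of 34 genes of the DNA replication pathway was called by limma, with voom weights or without, and 3 were higher at an unadjusted p under 0.05. Of 16 cell cycle inhibitors and senescence genes only Cdkn1b passed, with a fall (10.1 to 12.5 against 7.34 to 7.801 RPKM, -0.53 ± 0.08, adjusted p = 0.00747), and it was lost without Znrf3 cKO 3 and 4. In this list 13 genes had a positive value, 6 were higher and 1 lower at an unadjusted p under 0.05, and 2 were called higher in 1 fit over all groups. Among all 19539 tested genes 5147 were under that p in either direction. Cdkn1a (0.65, adjusted p = 0.227) and Cdkn2a (0.41, adjusted p = 0.107) did not pass.

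**Figure D4:**
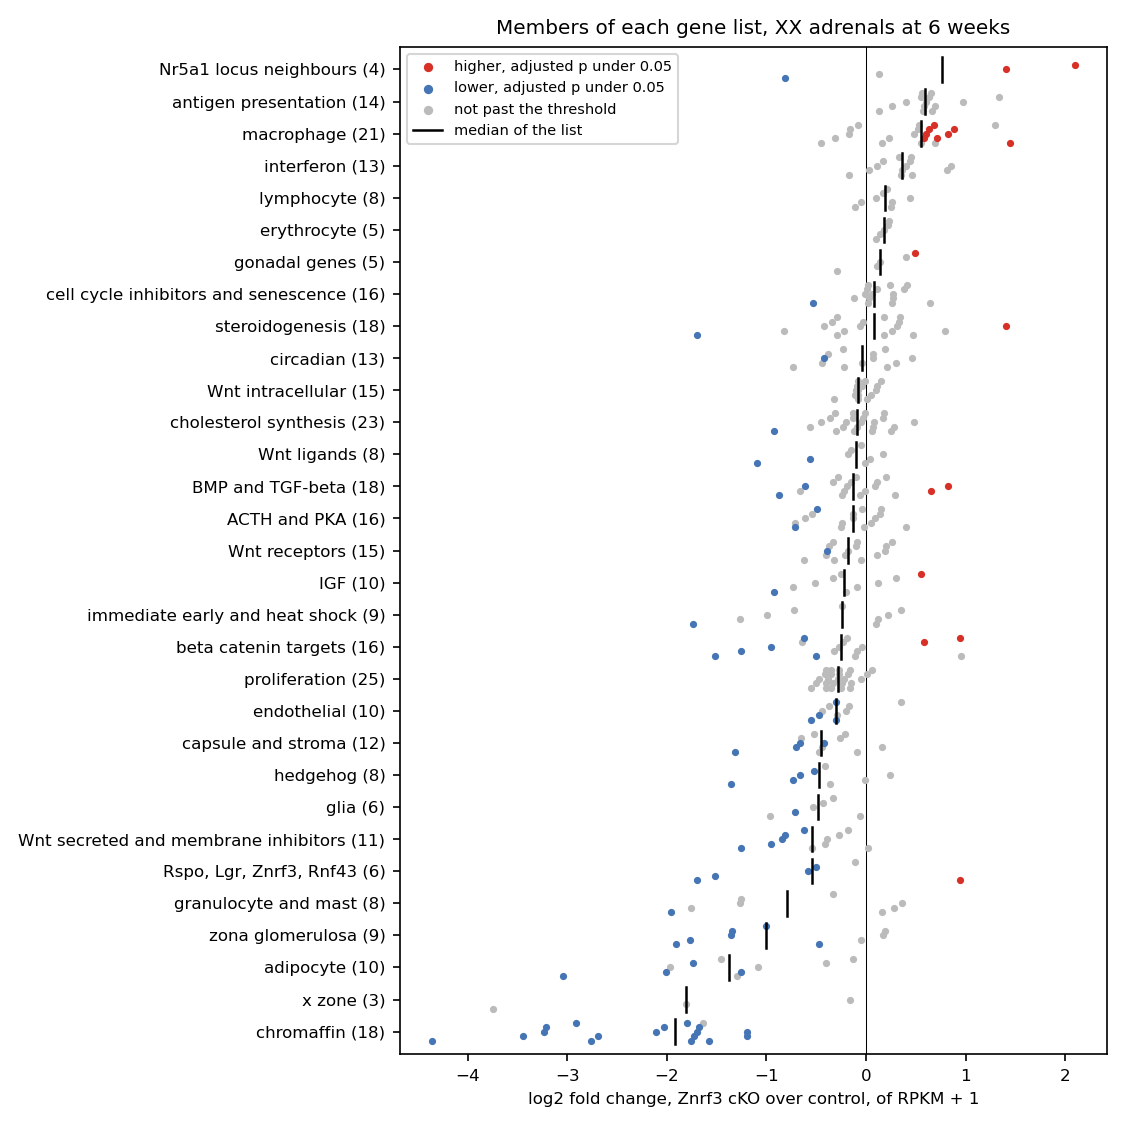
The log2 fold change of RPKM + 1, Znrf3 cKO over control, of every measured member of the lists shown, 1 point per gene and the number of measured members in brackets. The study's gene sets, its phagocytosis and secretory genes and Xist are not shown as lists. Red and blue points passed the test as higher or lower, grey points did not, and black bars are the medians, from -1.91 in the chromaffin list to 0.77 in the neighbours of Nr5a1.

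Lists of antigen presentation (14 genes, median 0.59) and interferon response (13 genes, median 0.36) had no gene called by limma, with voom weights or without, nor had lymphocyte or erythrocyte genes. At an unadjusted p under 0.05, 4 genes of antigen presentation, 2 of the interferon response and 1 of lymphocytes were higher, and 0 were lower. Among all 19539 tested genes 5147 were under that p in either direction, so these counts do not set the lists apart. H2-Eb1, a class II gene, was at 61.9, 56.8, 1.91 and 66.9 RPKM in controls 1 to 4, with control 3 far under the others, and at 33.5, 67.01, 68.5 and 179 in the cKO libraries.

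Some genes of vessels, capsule and stroma fell, and the part of gland size in these falls was not tested. Of 10 endothelial genes 4 were lower and 0 higher, the growth factor receptor genes Kdr (16.6 to 22.8 against 11.1 to 14.6 RPKM, -0.55), Flt1 (-0.47), Tek (-0.301) and Tie1 (-0.300). Without Znrf3 cKO 3 and 4 the count was 0, and it was 1 without control 1 or 3 or Znrf3 cKO 3 and 2 without control 4 or Znrf3 cKO 2 or 4. Of 12 capsule and stroma genes 4 were lower: Gli1, Lum (9.102 to 14.7 against 2.61 to 6.28 RPKM, -1.32 ± 0.21, adjusted p = 0.00960), Dcn (-0.701) and Nr2f2 (-0.42). Lum and Dcn encode small proteoglycans of collagen matrix, and Nr2f2 a nuclear receptor of capsule cells. In this list the count was 2 without Znrf3 cKO 3 and 4, without any 1 of controls 1 to 3 or of Znrf3 cKO 1 to 3, and 1 in 1 fit over all groups. In the BMP and TGFβ list, Bmp4 and Tgfb3 fell while Id2 (0.83, adjusted p = 0.0203) and the inhibitory Smad6 (0.66, adjusted p = 0.00746) rose, in 18 genes. The mast cell protease gene Cpa3 (2.63 to 15.7 against 0.584 to 1.48 RPKM, -1.96, adjusted p = 0.0299) was the 1 fall in 8 granulocyte and mast cell genes. Egr1 (-1.73, adjusted p = 0.0197) was the 1 fall in 9 immediate early and heat shock genes, and Cry1 (-0.42) that in 13 clock genes. Among all tested genes 5.89% were lower and 2.2% higher, so 1 fall in a list of this size says little about the list.

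Some fat cell genes fell in the cKO libraries. The study's methods state that glands were trimmed of surrounding fat after dissection. Of 10 genes 4 were lower and 0 higher (median -1.37), and their sum was 379 to 822 RPKM in controls against 107 to 309 RPKM in cKO libraries. Ucp1, the uncoupling protein of brown fat, was at 63.4, 26.6, 47.9 and 264 RPKM in controls 1 to 4 and 4.38, 3.51, 13.8 and 13.2 in Znrf3 cKO 1 to 4 (-3.04 ± 0.696, adjusted p = 0.0336), with control 4 far above the rest. The lipid droplet genes Cidea (-2.01, adjusted p = 0.0266) and Cidec (-1.74, adjusted p = 0.0441) and the fatty acid carrier gene Fabp4 (-1.26, adjusted p = 0.04899) fell, while Adipoq (-1.45, adjusted p = 0.0643) and Plin1 (-0.13) did not pass. The count was 0 without control 1, Znrf3 cKO 1 or Znrf3 cKO 3, 1 without control 3 or 4 or Znrf3 cKO 2, 2 without control 2, and 0 in 1 fit over all groups. Cox8b (-2.21), a mitochondrial gene of brown fat, Fasn, fatty acid synthase (-1.28), Thrsp (-1.18), Cdo1 (-1.72), Slc36a2 (-1.68), Ces1d (-1.596) and Pygl (-1.53) were lower in the same libraries, and the part of fat cells in these values was not tested.

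The same comparison was made in XX adrenals of 4 and 12 weeks and in XY adrenals of 6 weeks, each with 4 cKO libraries and 4 controls of its own, and the difference between knockout effects was tested as an interaction. Between XX adrenals of 6 and 4 weeks 0 of 20222 genes passed, with 1740 at an unadjusted p under 0.05 and a smallest adjusted p of 0.0845 (limma). This count rested on the fit and on single libraries: 85 genes passed without control 1 of the 4-week group, 9 without control 2 of the 6-week group, 6 without Znrf3 cKO 2 and 1 without Znrf3 cKO 1 of that group, 40 in 1 fit over all groups and 1 with no filter. Of the chromaffin list 18 of 18 genes fell at 4 weeks, where 9.55% of all tested genes were lower, and 18 of 18 at 12 weeks, where 10.8% were. Macrophage genes had 0 rises and 1 fall at 4 weeks and 0 of either at 12 weeks, but 0 of 21 passed the test of the difference from 6 weeks at either age. At 4 weeks 14.3% of all tested genes were higher and at 12 weeks 15.6%. The proliferation list had a median of 0.61 at 4 weeks with 2 genes higher, 0.13 at 12 weeks and -0.29 at 6 weeks, and no gene of it passed the test of the difference.

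Between 12 and 6 weeks 4 of 19853 genes passed, 2 in each direction (0.0101% each). Steap1 fell less at 12 weeks (-0.603 against -1.505, a difference of 0.902, adjusted p = 0.0119), and Hddc3, a nucleotide hydrolase gene, was 0.65 at 12 and -0.054 at 6 weeks (0.701, adjusted p = 0.0482). Col4a6 was 0.25 at 12 weeks against 1.71 at 6 weeks (-1.46, adjusted p = 0.0119) and the predicted gene Gm14435 -0.56 against 0.43 (-0.999, adjusted p = 0.0482). None of the 4 calls was left without Znrf3 cKO 3 and 4 or without Znrf3 cKO 3 alone, and 0 passed with libraries rescaled to a common sum.

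Between the sexes at 6 weeks 426 of 20518 genes passed, 234 with a more positive effect in XX (1.14%) and 192 with a more negative one (0.936%). Mgat4c, which rose in XX by 3.34, was -0.99 in XY adrenals (difference 4.33 ± 0.63, adjusted p = 0.00341). Scube1 was 2.18 in XX and -0.24 in XY (2.41, adjusted p = 5.48e-05), and Fscn1 2.23 and 0.67 (1.56, adjusted p = 0.00117). The differences for Nxph1 (2.11), Pipox (1.54), Col4a5 (1.47), Crybb1 (1.38) and Pde7a (1.37) passed as well, and so did those for Ak1 (1.25), Gabrg3 (1.12) and Ggt6 (1.24). All of these were picked for a large effect in XX, so their number is no measure of how often the sexes differ. The differences for Adh7 (1.94, adjusted p = 0.115) and Nr5a1 (0.85, adjusted p = 0.342) did not pass. Il34 fell in XX (-1.77) and was at -0.025 in XY (difference -1.74, adjusted p = 0.0121), and Car8 was -2.49 against -0.45 (-2.04, adjusted p = 0.0423). The call for Car8 was lost in 15 of 22 alternatives and that for Crybb1 in 7.

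Fat genes were among those with a more negative effect in XX. Of the 10 fat cell genes 3 passed the test of the sex difference, all more negative in XX, with a median difference of -2.64. The genes that follow were named by their differences among genes with 5 RPKM or more and no overlap of the groups in XX adrenals, Fabp4 as a member of the list. Ucp1 was -3.04 in XX and 2.29 in XY (-5.32 ± 1.03, adjusted p = 0.0169), and Cidea -2.01 and 3.02 (-5.03 ± 0.76, adjusted p = 0.00465). The controls of the sexes differed in level too. Mean Ucp1 was 100.4 RPKM (SD 109.9) in XX and 2.02 RPKM in XY controls, and mean Cidea 39.9 and 2.201 RPKM. The XY cKO libraries varied widely, with means of 15.9 RPKM (SD 17.5) for Ucp1 and 30.2 RPKM (SD 24.3) for Cidea. The part of the control levels in these differences was not tested. Cdo1 (-3.402), Slc36a2 (-2.97), Thrsp (-2.85), Ces1d (-2.83), Fasn (-2.82), Pygl (-2.75) and Fabp4 (-2.69) differed in the same direction. The calls for Thrsp and Ces1d were lost in 15 of 22 alternatives, among them most that left out 1 library, that for Pygl in 10 and that for Fabp4 in 5. Those for Ucp1, Cidea, Slc36a2 and Fasn were lost in 1 fit over all groups, and that for Cdo1 with no filter. The difference between the sexes also passed, as more negative in XX, for 3 of 23 cholesterol synthesis genes and 2 of 9 granulocyte and mast cell genes. It did so for 1 of 11 endothelial, 1 of 16 ACTH and protein kinase A and 1 of 19 BMP and TGFβ genes. Of the chromaffin, macrophage, Wnt inhibitor, hedgehog and zona glomerulosa lists, 0 genes passed this test. Among all tested genes only 1.14% passed as more positive and 0.936% as more negative, so 0 in a short list says little. The chromaffin list fell in 17 of 18 genes in XY adrenals too, where 7.19% of all tested genes were lower, and 2 of 21 macrophage genes rose there, where 2.81% were higher. The number of genes that differed between the sexes was 226 without Znrf3 cKO 3 and 4 and 207 without Znrf3 cKO 3.

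**Figure D5:**
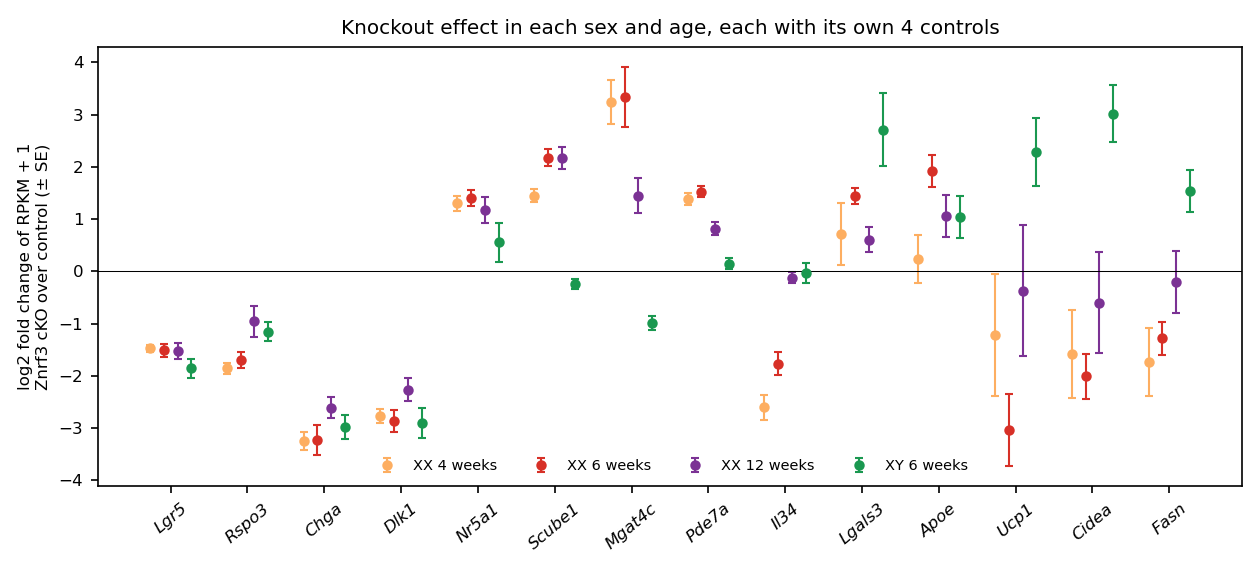
The knockout effect (log2 fold change of RPKM + 1, cKO over control, with its SE) on 14 genes in XX adrenals of 4, 6 and 12 weeks and XY adrenals of 6 weeks, each against its own 4 controls. Chga and Lgr5 fell in all 4, Mgat4c and Scube1 lie above 0 in XX and below 0 in XY, and Ucp1, Cidea and Fasn lie below 0 in XX and above 0 in XY.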

How the data were processed

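RNA from whole adrenals was sequenced by the authors with a stranded poly(A) kit, from 300 ng of total RNA. Per the labels and the study's methods, the authors used bcl2fastq (2.17.1.14 in the submitters' processing notes, another version in the methods), cutadapt 3.2, FastQC 0.11.7 and HISAT2 2.2.1 on mm10, summed reads by gene, and deposited a single table for all 73 libraries in RPKM, reads scaled by transcript length and library depth (DESeq2 1.34.0 is named too). There, 4 columns of the oldest XX cKO group hold the same values as 4 of XY cKO adrenals and were left out of the fit over all groups. The strand setting of the counting is not given in the sources used here. The deposited RPKM carry a median-of-ratios scaling within each set of 8 libraries. Genes are Ensembl genes; positions, lengths and types are from GENCODE M21 (GRCm38), and promoters are RefSeq's.

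Low RPKM values are whole multiples of 1 read: 98.5% to 98.7% of values under 1000 reads came within 0.02 of a whole number, and 1 read in 1 kb was worth 0.0185 to 0.0326 RPKM. Depth was 30137759 to 55378049 recovered reads per library. Because the values are not counts, log2(RPKM + 1) was tested with limma 3.58.1 (trend, Benjamini-Hochberg) in R 4.3.3, as planned. Tested were genes averaging 0.5 RPKM or more in at least 1 group, 4 libraries against 4. A count test was planned only for a table that held counts. Interactions were fitted on 16 libraries. The procedure was tested on simulated data. Tables were handled with data.table (version 1.17.8), Python 3.11.15, numpy 2.4.6, pandas 2.3.3 and scipy 1.17.1, and plots with matplotlib 3.10.9.

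Named genes were members of the lists, the 20 largest rises and falls past the test with at least 5 RPKM and groups not overlapping, 8 genes a direction per interaction and 4 per gene set of the study. Hddc3, Gm14435, Col4a6 and Rian were added after their values were seen. Lists and members were chosen with earlier results of these data known. Alternatives were another pseudocount (0.1), no filter or 2 RPKM, 1 fit over all groups, other scalings, voom weights on recovered reads and each library left out; those without small RNA genes or without Znrf3 cKO 3 and 4 were chosen after seeing the data. Groups came from the sex, genotype and age in the labels. Results for a few genes are not reported here.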

Additional observations from a re-analysis of the deposited data

Results flagged for a closer look

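In 20 of 308 checks of a named gene in 1 group of 4, 1 library lay far from the other 3, by a rule that chance meets in about 1 in 20 groups. In the controls the library that stood high was control 1 for Hhip (2.02 RPKM, the others 1.67 to 1.72), Phox2a (4.48 RPKM), Cdo1 (78.3 RPKM), Fasn (170.7 RPKM) and Gpnmb (0.145 RPKM). Control 2 stood high for Mgat4c (2.50 RPKM) and Apoe (385 RPKM), and control 4 for Cartpt (9.46 RPKM), Ucp1 (264 RPKM) and Top2a (12.0 RPKM). Control 4 stood low for Fscn1 (8.89 RPKM) and Gabrg3 (0.941 RPKM), and control 3 for H2-Eb1 (1.91 RPKM, the others 56.8 to 66.9).

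In the cKO group each library that stood apart was Znrf3 cKO 1. It was low for the receptor gene Fzd6 (2.12 RPKM, the others 3.799 to 4.14), Olfml2a (0.984 RPKM), Tgfb3 (1.08 RPKM), Tnfrsf11b (1.22 RPKM) and Pear1 (2.25 RPKM), and high for Casp12 (76.3 RPKM) and Tek (13.8 RPKM).

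The effect of the knockout differed between 12 and 6 weeks in XX adrenals in 2 genes towards a more positive and 2 towards a more negative value. The differences of log2 fold changes were 0.902 in Steap1, 0.701 in Hddc3, -1.46 in Col4a6 and -0.999 in Gm14435. Between XX and XY adrenals of 6 weeks it differed in 234 genes with a more positive and 192 with a more negative effect in XX. The differences were 4.33 in Mgat4c, 2.41 in Scube1, 2.11 in Nxph1, 1.56 in Fscn1, 1.54 in Pipox, 1.47 in Col4a5, 1.38 in Crybb1 and 1.37 in Pde7a. On the other side they were -5.32 in Ucp1, -5.03 in Cidea, -3.402 in Cdo1, -2.97 in Slc36a2, -2.85 in Thrsp, -2.83 in Ces1d, -2.82 in Fasn, -2.75 in Pygl, -2.69 in Fabp4, -2.04 in Car8 and -1.74 in Il34.

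Small noncoding RNA, which a poly(A) library should hardly hold, took 1.58% of the reads of Znrf3 cKO 3 and 1.30% of those of Znrf3 cKO 4, against 0.128% to 0.148% in the controls. Of 613 small RNA genes tested, 2 were higher and 17 lower in the knockout.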

How the results depend on the processing

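Of 126 named genes that passed the test, 57 passed in every one of the 17 alternatives that tested them, and none changed direction. With a minimum of 2 RPKM only 118 of the 126 were tested. Calls lost were 12 to 49 with 1 library left out (49 without control 1, 42 without Znrf3 cKO 3), 42 without Znrf3 cKO 3 and 4, 42 in 1 fit over all groups and 31 with no filter. No paired analysis was possible because the labels give no replicate numbers. The number of genes higher in the knockout was 975 in 1 fit over all groups, 213 with a common sum of RPKM, 146 without Znrf3 cKO 3 and 4, and 61 with a change of at least 2-fold. The number of lower genes was 630 with a minimum of 2 RPKM, 474 without Znrf3 cKO 3 and 4 and 264 with a change of at least 2-fold. Leaving out each library gave 152 to 597 higher and 542 to 1202 lower genes. A common sum moved the median log2 fold change of all genes by -0.126. Rescaling by median-of-ratios factors over the 8 libraries changed nothing, since the deposited values already carry it. The difference between 6 and 4 weeks had 1 gene with no filter and 40 in 1 fit over all groups, and 0 to 85 with each library left out. That between 12 and 6 weeks had 1 gene with a pseudocount of 0.1, 2 in 1 fit over all groups, 0 with a common sum and 0 without Znrf3 cKO 3 and 4, and 0 to 5 with each library left out. That between the sexes had 250 genes with a pseudocount of 0.1, 263 with no filter, 226 in 1 fit over all groups and 226 without Znrf3 cKO 3 and 4, and 207 to 466 with each library left out. In genes that did not pass the test, the direction turned for Psmb7 with a common sum (-0.022), for Cyp11b2 without control 2 (0.0042) or Znrf3 cKO 1 (0.083; range over libraries left out -0.13 to 0.083) and for Axin2 without Znrf3 cKO 1 (0.023; range -0.16 to 0.023). The cause of these changes was not tested.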
